A study of Mus musculus with 24 samples.

Results

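The carbonic anhydrase transcripts Car1, Car2, Car3, Car4, Car6, Car9, Car12, Car13 and Car14 were followed across 7 mouse cell lines on 24 arrays. These 9 genes, of the 45547 gene names on the array, were read by 12 probes, taken as those whose RefSeq transcript carries 1 of these symbols. The set was chosen by name, but it was put forward because of the measured level of Car2 in DB#2, so the values of Car2 in the melanoma lines are given as a description and carry no p-value. Where members are counted in a comparison with a melanoma line, the count is over the other 8 members.

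The melanoma lines all derive from mouse B16F1 cells that carry green fluorescent protein, and were grown in DMEM with 10% FBS. B16F1-GFP-M (M, 3 arrays) is the parental line, B16F1-GFP-D (D, 4 arrays) was recovered from syngeneic mice that held dormant tumour cells under immunotherapy, and B16F1-GFP-DB#1 (4 arrays), B16F1-GFP-DB#2 (3) and B16F1-GFP-DB#3 (3) are second-generation cells from a brain site. All were expanded in culture before RNA was taken, and the sources used here do not say whether a DB line is a clone. The myeloid lines are M0 (4 arrays) and J365 (3 arrays). All their titles carry the mark p20, which no melanoma title does, and the labels give these lines no further identity. Nothing in the labels says that arrays of a line came from separate cultures, so p-values measure the spread between these arrays, which may be technical.

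Carbonic anhydrases convert carbon dioxide and water to bicarbonate and a proton, and back. Car1, Car2, Car3 and Car13 act in the cytosol, Car4 is tethered to the outer membrane face, Car9, Car12 and Car14 span the membrane with the catalytic site outside the cell, and Car6 is secreted. Car9 is a classical target of the hypoxia-inducible factors (HIF), and the membrane enzymes work beside bicarbonate and proton transporters that set the pH on the 2 sides of the membrane.

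Levels are log2 intensities less the 75th percentile of the array, and are compared between lines for the same probe, not between genes. On 23 arrays between 43.6% and 53.8% of probes were well above background by the scanner software's mark, whereas D replicate 3 had 89.9%. The labelled cell types carried their markers: 10 melanin synthesis genes averaged 5.83 to 6.96 on every melanoma array and -4.56 to -4.22 on every myeloid one, and the average of 12 leukocyte genes ran from -4.02 to -2.15 and from 2.04 to 2.66, respectively.

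Of the 9 members, Car9, Car13 and Car14 were well above background on all 24 arrays, and Car1 on 22 by its brighter probe. A second Car1 probe, with line means of -6.76 to -5.39, was well above background on 2 arrays. The Car1 probes thus disagree on whether the transcript is detected, and Car1 values are those of the brighter probe. Car6 was read on all 17 melanoma arrays and on 0 of 7 myeloid arrays. Car2 was read on 15 melanoma arrays and 1 myeloid array. Car12 was read on all 7 myeloid arrays and, among the melanoma arrays, on D replicate 3 alone. Car3 and Car4 were each well above background on 1 array, again D replicate 3, and are not compared further.

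**Figure D1:**
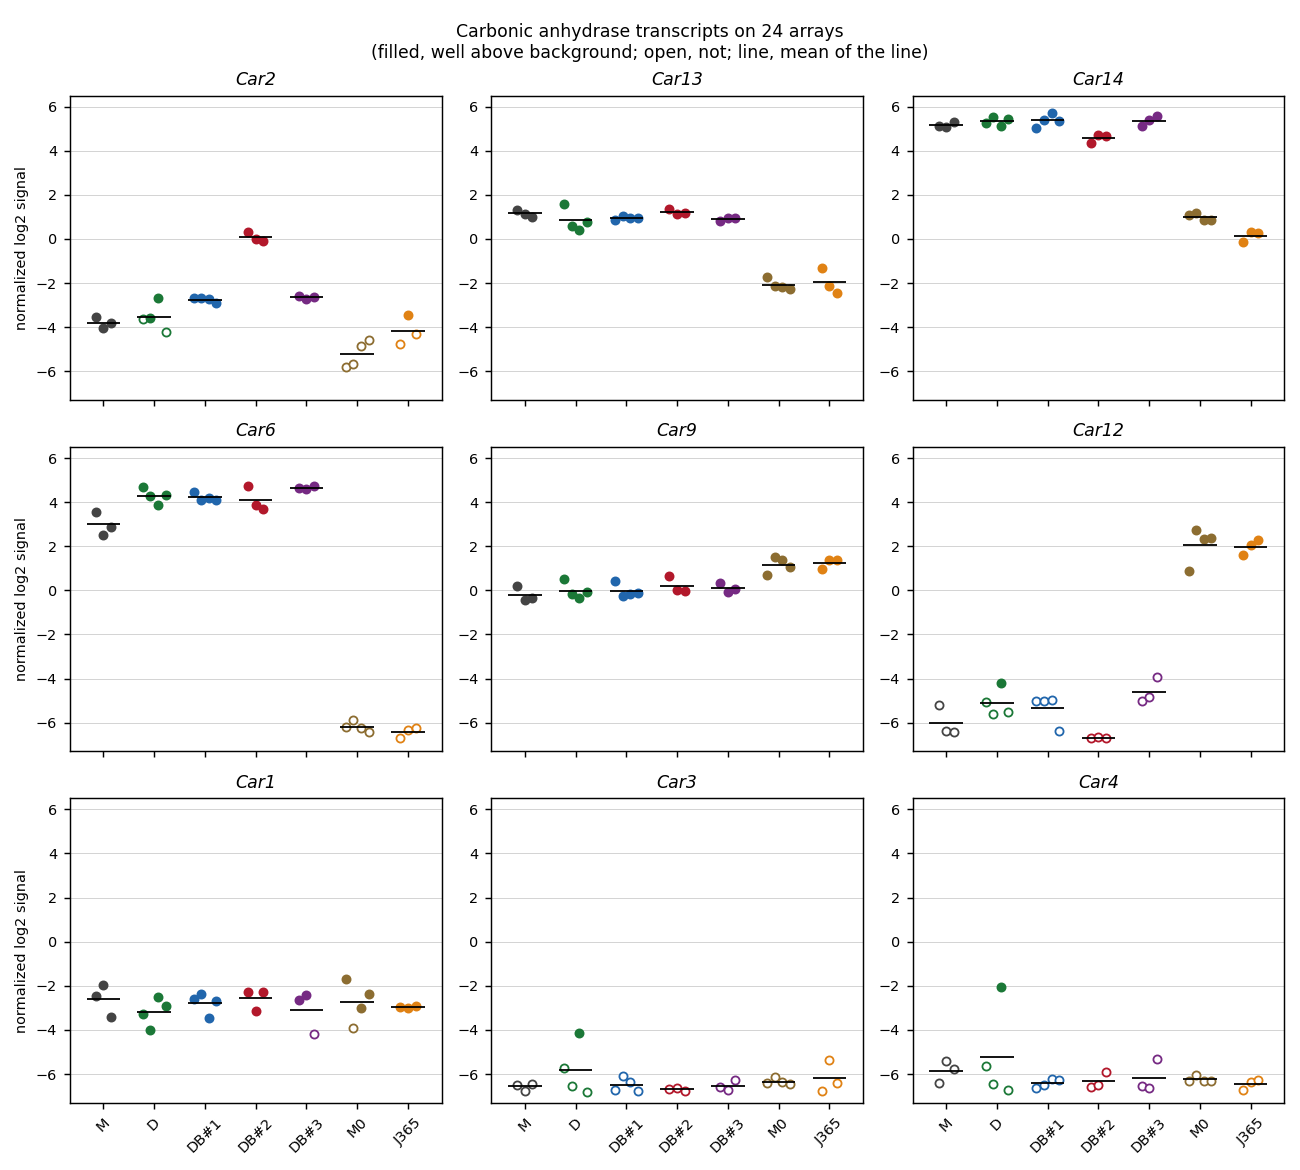
Normalized log2 signal (vertical axis, log2 intensity less the array's 75th percentile) of the 9 carbonic anhydrase transcripts on each array of the 7 lines (horizontal axis). Filled points are well above background, open points are not, and the bar is the mean of the line. The 3 DB#2 arrays lie between -0.10 and 0.31 for Car2, above all other arrays, and Car6 is open on every myeloid array.

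Car2, the high-activity cytosolic enzyme, stood highest in DB#2. Its level on the 3 DB#2 arrays was 0.31, 0.00 and -0.10. In M it was -3.53, -4.05 and -3.82, and in D -3.64, -3.58, -2.69 and -4.23. The DB#1 arrays had -2.70, -2.66, -2.74 and -2.88, and the DB#3 arrays -2.57, -2.71 and -2.62. The DB#2 arrays did not overlap with the 14 other melanoma arrays, the highest of which was at -2.57. The 7 DB#1 and DB#3 arrays all lay above the 3 M arrays, whereas D overlapped with M and, through its replicate 3, with DB#1 and DB#3. DB#3 and DB#1, next in the order of Car2 levels, overlapped with each other.

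Expressed as differences, Car2 was 3.87 ± 0.37 (SE, log2) higher in DB#2 than in M, a 14.7-fold difference, and 3.61 ± 0.34 higher than in D. It was 1.05 ± 0.34 higher in DB#1 and 1.17 ± 0.37 higher in DB#3 than in M, against 0.26 ± 0.34 in D, a difference that turned to -0.02 without D replicate 3. Within the slides, the physical glass holding 8 arrays each, the DB#2 arrays exceeded M by 3.82 (slide 1), 4.36 (slide 2) and 3.44 (slide 3). With normexp background correction, in which an offset is added to every signal, the differences from M shrank to 2.23 in DB#2, 0.37 in DB#1 and 0.51 in DB#3. In the myeloid lines Car2 was well above background on J365 replicate 1 alone, at -3.46, and no test was made.

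Because Car2 is abundant in oligodendrocytes and red cells, and the DB lines came from a brain site, markers of those cells were read on the same arrays. The mean of 8 oligodendrocyte markers was -2.59 to -2.12 in DB#2 and -2.24 to -1.81 in M, with 4 to 5 of them well above background in both. Opalin, a myelin protein of oligodendrocytes, averaged -6.77 in DB#2 and -6.45 in M. The mean of 8 erythroid markers was -4.64 to -4.02 in DB#2 and -3.92 to -3.84 in M. The DB#2 arrays, with the highest Car2, did not have higher levels of these 2 lists than M. The mean of 6 astrocyte markers was -3.07 to -2.85 in DB#2 and -3.12 to -2.91 in M, and that of 6 neuron markers -3.44 to -2.94 and -3.35 to -3.04. Within these lists, Gja1, the gap junction protein of astrocytes, was higher in DB#2 (-0.53 ± 0.34, SD, n = 3) than in M (-2.67 ± 0.47). So was the neuronal tubulin Tubb3 (4.04 ± 0.33 against 2.73 ± 0.33), and neither overlapped. Both were well above background on every melanoma array. Of the other astrocyte markers, Aqp4 averaged -4.02 in DB#2 and -3.34 in M, Aldoc 3.47 and 3.87, and Gfap -3.07 and -3.08. Slc1a2 and Slc1a3 were lower in DB#2 than in M. The other neuron markers, Snap25, Syt1, Rbfox3, Gad1 and Slc17a7, were lower as well. The part of these markers in the Car2 result was not tested. In RNA of whole cultures, more cells with a transcript and more transcript per cell cannot be told apart.

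Car2 lies in a cluster on chromosome 3 in which RefSeq orders Car13, Car1, Car3 and Car2. The other 3 members of the cluster did not share its level in DB#2. Against M, Car13 differed by 0.05 ± 0.27 (limma adjusted p = 0.999) and Car1 by 0.04 ± 0.53 (adjusted p = 0.999), and Car3 was not above background in either line. Among the 5 array genes on each side of the cluster, Lrrcc1, E2f5, Rbis and Sirpb1a were tested in DB#2 against M, with differences from -0.40 to -0.03 and none called. The other 6 flanking genes were not well above background in the lines compared.

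**Figure D2:**
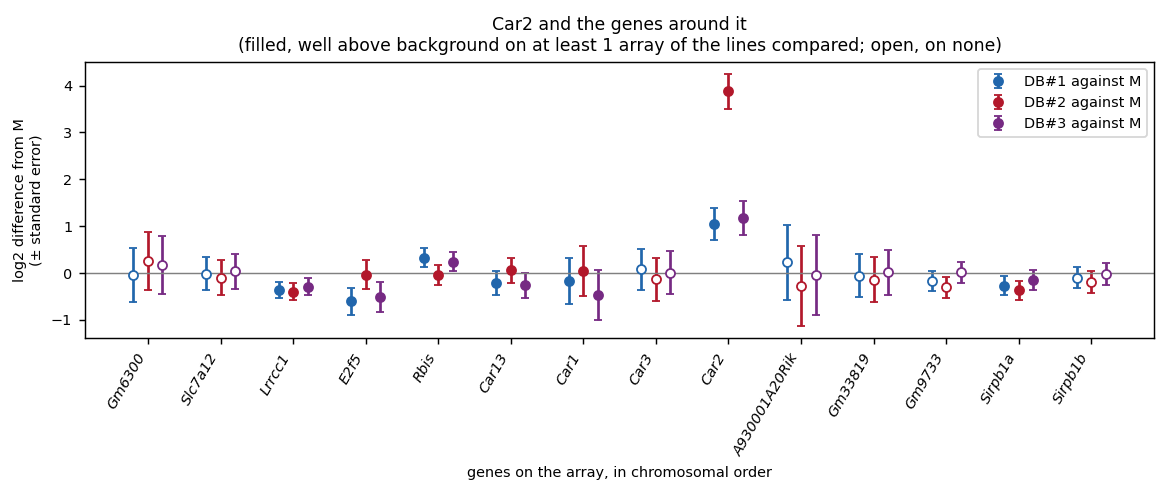
Log2 difference from M, with its standard error (vertical axis), of the carbonic anhydrase cluster and the 5 array genes on each side, in chromosomal order (horizontal axis), for DB#1, DB#2 and DB#3. Filled points were well above background on at least 1 array of the lines compared. Car2 stands at 3.87 in DB#2, 1.05 in DB#1 and 1.17 in DB#3, and the filled points of the other genes lie between -0.61 and 0.33.

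Of 13231 genes compared over the 17 melanoma arrays, those with levels most like Car2 were Ddit4l (Pearson r = 0.94), an inhibitor of mTOR signalling, Icam2 (0.93), an adhesion molecule, and Cfi (0.93), a complement protease. The points share lines and slides, so the correlations are a description. Ddit4l was 0.77 ± 0.18 (SD, n = 3) in DB#2 and -2.74 ± 0.20 (n = 3) in M.

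Outside the 9 members, Car8 was also higher in DB#2. Car8 is a carbonic anhydrase-related protein that lacks catalytic activity and binds the inositol trisphosphate receptor. Its level was -0.84, -1.38 and -0.66 on the DB#2 arrays and -3.50, -3.85 and -4.18 on the M arrays, with no overlap. It rose by 2.88 ± 0.40 against M (limma adjusted p = 6.3e-05) and by 3.26 ± 0.38 against D (4.55e-06). Car8 was well above background on 2 of the 3 M arrays and 3 of the 4 D arrays. It entered both tests only because every DB#2 array, where it is high, was well above background. These calls and p-values are therefore not independent of the filter. A second Car8 probe was well above background on the 3 DB#2 arrays and on no M or D array. In DB#1 and DB#3 the difference from M was 0.85 (adjusted p = 0.307) and 1.00 (0.298). With normexp the DB#2 differences were 1.45 and 1.60, both still called. Of the other family genes on the array, Car7, Car11 and Car15 were tested in all comparisons among melanoma lines and called in none. Car5a was tested only in DB#3 against M and DB#3 against D and was not called. Car10 was too dim to be tested in any of them, and Car5b had no probe.

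**Figure D3:**
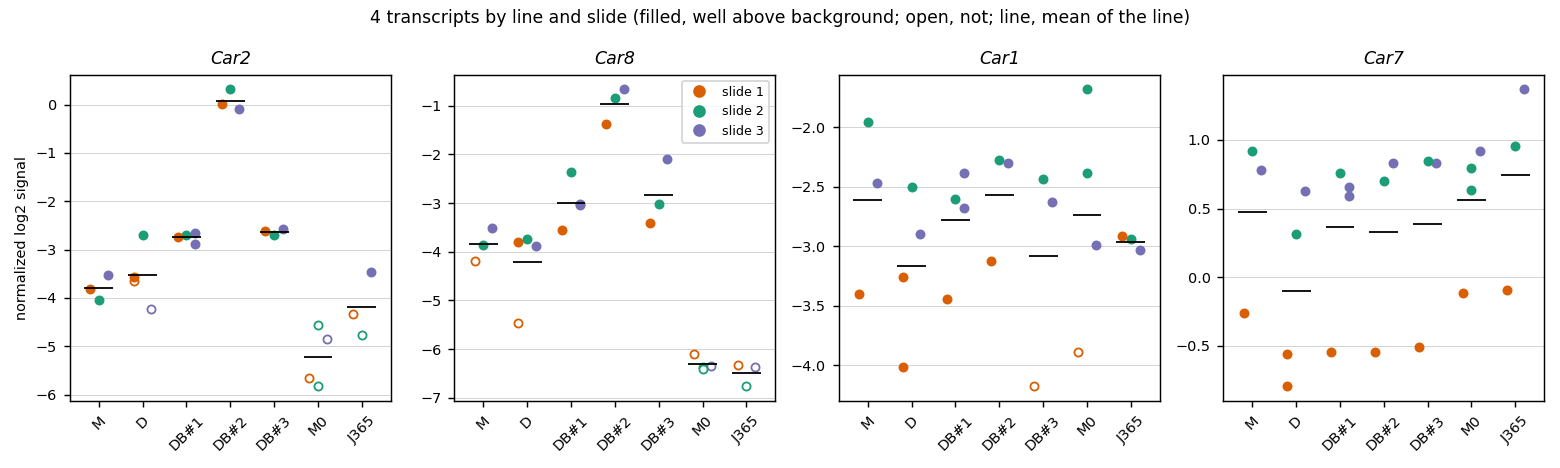
Normalized log2 signal (vertical axis) of Car2, Car8, Car1 and Car7 by line (horizontal axis) and slide (colour). Filled points are well above background, and the bar is the mean of the line. Car2 and Car8 separate DB#2 on every slide, whereas Car7 is at -0.09 or below on slide 1 and at 0.31 or above on the other slides.

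Car6, the secreted enzyme best known from saliva, was the member that differed between the parental line and all 4 derived lines. Its level in M was 3.56, 2.53 and 2.88. In D it was 4.67, 4.27, 3.86 and 4.34, and in DB#1 4.48, 4.10, 4.20 and 4.09. The DB#2 arrays had 4.72, 3.89 and 3.67, and the DB#3 arrays 4.64, 4.57 and 4.74. The 14 arrays of derived lines, at 3.67 to 4.74, did not overlap with M, but the highest M array and the lowest DB#2 array were close.

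Against M, Car6 rose by 1.29 ± 0.26 in D (limma adjusted p = 0.0039), by 1.22 ± 0.26 in DB#1 (0.00472), by 1.10 ± 0.28 in DB#2 (0.0217) and by 1.66 ± 0.28 in DB#3 (0.000516). These are 2.45-, 2.33-, 2.14- and 3.16-fold differences. It was in each comparison the 1 member called of the 5 tested, where 2.97% of all tested genes were called in D, 3.69% in DB#1, 3.44% in DB#2 and 2.76% in DB#3. The 4 comparisons share the M arrays. Without D replicate 3 the rise in D was 1.43 (adjusted p = 0.00215).

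The DB#2 rise of Car6 was uneven across the slides, at 1.00, 2.19 and 0.11. It lost its call without M replicate 2 (0.87, adjusted p = 0.170), without M replicate 3 (1.05, 0.0973) or without DB#2 replicate 1 (0.79, 0.180), and the DB#1 rise lost its call without M replicate 2 (0.99, 0.0586). Among the derived lines, Car6 differed from D by -0.07 ± 0.24 in DB#1, by -0.19 ± 0.26 in DB#2 and by 0.37 ± 0.26 in DB#3, and none passed the test.

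The 3 genes named on the array on each side of Car6 on chromosome 4 were taken after the values of Car6 were seen and are given as values. Eno1, a glycolytic enzyme, was 0.24 higher in D than in M, Slc2a5, a fructose transporter, 0.03 higher, and Gpr157 0.15 higher. Rere was 0.19 lower (difference -0.19), while Slc2a7 and Slc45a1 were well above background on 1 and 5 of the 24 arrays, with differences of 1.39 and -1.99. Slc2a5 was like Car6 in being well above background on all 17 melanoma arrays and on none of the myeloid arrays. The genes with levels most like Car6 over the melanoma arrays were Mars2 (r = 0.93), Usp10 (0.92) and 2010204K13Rik (0.92).

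Car14, a transmembrane enzyme, stood lowest in DB#2 among the melanoma lines. Its level was 4.37, 4.73 and 4.65 in DB#2, against 5.25, 5.54, 5.11 and 5.44 in D and 5.13, 5.09 and 5.31 in M. All 14 melanoma arrays outside DB#2 lay at 5.03 or higher. Against D it fell by 0.75 on the log2 scale (SE 0.19, limma adjusted p = 0.00845), where 6.34% of all genes were called, and the difference within the slides was -0.67, -0.75 and -0.79. A second probe differed by -0.94. The call was lost without DB#2 replicate 1 (-0.65, adjusted p = 0.069). Against M the difference was -0.59 ± 0.20 and was not called (adjusted p = 0.0913), but it was called with slide as a block (0.0150). DB#1 and DB#3 differed from D by 0.04 and 0.03, where 0.475% and 0.369% of all genes were called and no member was.

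Car14 also differed between the myeloid lines. It was 1.09, 1.17, 0.84 and 0.87 in M0 and -0.15, 0.32 and 0.26 in J365, with no overlap. The fall of 0.85 on the log2 scale (SE 0.19, limma adjusted p = 0.0082) made Car14 the 1 member called of 5 tested in J365 against M0, where 1.47% of all genes were called. The second probe differed by -0.49, and with the mean over both probes the difference was -0.67 and was not called (adjusted p = 0.0630). Without J365 replicate 4 the difference was -0.70 and was not called (0.0968).

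**Figure D4:**
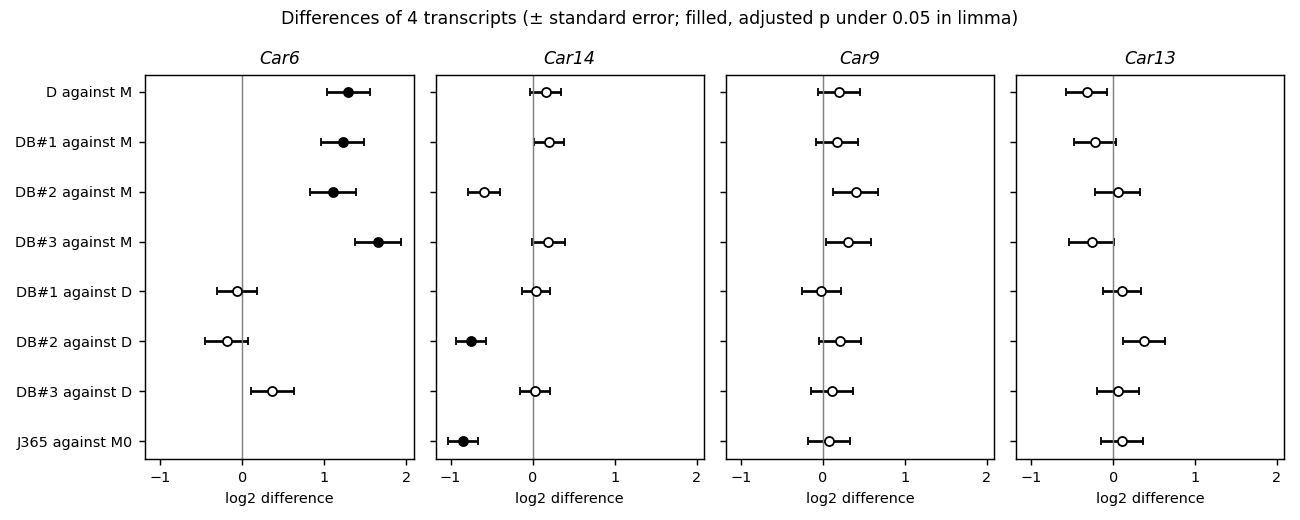
Log2 difference, with its standard error (horizontal axis), of Car6, Car14, Car9 and Car13 in 8 comparisons (vertical axis). Filled points had an adjusted p under 0.05 in limma, and Car6 was not tested in J365 against M0. Car6 is filled in all 4 comparisons with M, and Car14 in DB#2 against D and in J365 against M0.

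Whether the difference D minus M differed from the difference J365 minus M0 was tested in a comparison added after the values were seen. The labels do not say that J365 derives from M0. For Car14, 0.16 in the melanoma lines and -0.85 in the myeloid lines gave a difference of 1.01 ± 0.24 (limma adjusted p = 0.0292), where 2.08% of 23120 genes were called. For Car6 the difference was 1.52 ± 0.36 (0.0240), but its myeloid part, -0.23, was read on arrays where Car6 was not above background. Car1, Car9, Car12 and Car13 did not pass this test.

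Car9, Car13 and Car1 were called in no comparison between melanoma lines. Car9 was -0.44 to 0.63 on the 17 melanoma arrays, with a median of -0.06, and its differences from M ran from 0.17 in DB#1 to 0.40 in DB#2, none of which passed the test. Car13 was 0.42 to 1.58, and its differences from M were -0.33 in D, -0.22 in DB#1, 0.05 in DB#2 and -0.26 in DB#3, again not called. Car1 followed the slide: it was -4.17 to -2.92 on the 8 arrays of slide 1 and -3.03 to -1.68 on the other 16. Car7, a cytosolic enzyme outside the 9 members, had -0.79 to -0.09 on slide 1 and 0.31 to 1.37 elsewhere. The genes most like Car1 over the melanoma arrays, Gpa33, Ffar3 and Tmem116 (r = 0.93 each), fell to r of 0.64, 0.66 and 0.73 once each slide was centred.

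Between the parental melanoma line and the myeloid line M0, the family took different sides. Car6, Car13 and Car14 were higher in M, Car9 and Car12 were higher in M0, and Car1 did not pass the test. So 5 of the 6 tested members were called where 58.5% of all genes were. Car6 was not well above background in M0, nor Car12 in M, so each entered the test only through the line where it is high. The calls and p-values of Car6 and Car12 are therefore not independent of that filter. Car14 was 4.18 ± 0.19 higher in M (limma adjusted p = 1.09e-14) and Car13 3.23 ± 0.25 (3.05e-10). Car6 was at least 135-fold higher in M, since it was not well above background in M0 (limma adjusted p = 1.09e-17). This bound sets the mean in M against, on each M0 array, the lowest signal well above background or the probe's own signal if higher.

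Car12 ran the other way. Its level was 0.87, 2.73, 2.34 and 2.37 in M0 and 1.60, 2.04 and 2.28 in J365, and it was at least 82.6-fold higher in M0 than in M (limma adjusted p = 1.86e-12). Car9 was 0.72 to 1.51 on the 7 myeloid arrays, above every melanoma array, and it was lower in M than in M0 (log2 difference -1.37 ± 0.26, limma adjusted p = 6.47e-05). A second Car9 probe differed by -1.61. Among the other family genes, the mitochondrial Car5a was higher in M0 (difference M minus M0 of -4.29, adjusted p = 6.28e-09), as was Car15 (-0.63, 0.00105), and Car11 was at least 2.29-fold higher in M (1.24e-05). Car5a was well above background on 2 of the 3 M arrays and Car11 on no M0 array. Each thus entered the test only through the line where it is high, and its call and p-value are not independent of that filter. In J365 against M0, Car9 and Car12 differed by 0.07 and -0.11 and were not called.

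The 250 bases before the transcription start were taken from a RefSeq promoter table (build GRCm38.p6), which matched 5 of the 9 members, Car4, Car6, Car9, Car12 and Car14. The 4 that differed between the melanoma and myeloid lines are shown, 5′ to 3′ on the strand of the gene, since Car6 and Car14 were higher in M and Car9 and Car12 in M0. Capitals mark CACGTG (the E-box letters), CATGTG (an E-box variant) or ACGTG (the core letters of HIF sites), searched on both strands.
Car6 (chr4:150201136-150201385, minus strand): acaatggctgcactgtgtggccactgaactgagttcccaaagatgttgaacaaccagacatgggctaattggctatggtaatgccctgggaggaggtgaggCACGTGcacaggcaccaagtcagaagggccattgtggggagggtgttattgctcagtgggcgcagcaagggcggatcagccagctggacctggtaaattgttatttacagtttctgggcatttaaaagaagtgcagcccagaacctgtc
Car14 (chr3:95904686-95904935, minus strand): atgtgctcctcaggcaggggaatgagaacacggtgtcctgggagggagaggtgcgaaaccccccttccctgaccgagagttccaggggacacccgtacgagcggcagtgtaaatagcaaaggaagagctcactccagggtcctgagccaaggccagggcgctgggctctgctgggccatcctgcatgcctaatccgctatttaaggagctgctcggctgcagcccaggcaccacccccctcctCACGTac
Car9 (chr4:43506776-43507025, plus strand): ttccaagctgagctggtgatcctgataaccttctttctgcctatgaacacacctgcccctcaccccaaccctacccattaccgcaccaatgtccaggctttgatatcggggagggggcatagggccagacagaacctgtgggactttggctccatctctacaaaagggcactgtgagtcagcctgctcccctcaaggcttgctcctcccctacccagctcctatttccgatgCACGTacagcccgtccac
Car12 (chr9:66713436-66713685, plus strand): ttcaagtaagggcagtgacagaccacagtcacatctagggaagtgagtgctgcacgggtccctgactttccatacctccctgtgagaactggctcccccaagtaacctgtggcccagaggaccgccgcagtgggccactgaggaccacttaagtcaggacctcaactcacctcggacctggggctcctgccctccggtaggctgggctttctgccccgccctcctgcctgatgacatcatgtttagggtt
CACGTG stood in the Car6 sequence, 149 to 144 bases before the start, and in none of the other 3. It occurred in 6.02% of 32851 RefSeq promoter sequences of this length. ACGTG, which lies inside CACGTG on either strand, was also found at 7 to 3 bases before the start in Car14 and at 18 to 14 bases in Car9, both on the opposite strand, and in 16.6% of all promoters. CATGTG, in 12.3% of all, stood in none of the 4. Car12 held none of these letters in this window. A match is a string of letters and was not measured as a binding site.

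The transporters that move bicarbonate, protons and lactate were read beside the enzymes. Of 26 genes, 17 were tested in D against M, and 4 rose and 0 fell, with a median difference of -0.05 against -0.01 for all genes, of which 2.97% were called. The largest rises were those of Aqp1, a water channel that also passes carbon dioxide (2.30, adjusted p = 4.83e-05), Slc16a3, the lactate exporter MCT4 (1.71, 0.00554), and Slc4a11, an SLC4 family proton conductor (1.40, 0.00632). In DB#1 5 of 18 rose, where 3.69% of all genes were called, among them Aqp1 (2.48, 1.06e-05) and Slc16a3 (1.54, 0.0102). Slc4a5 was not well above background in M and was at least 1.64-fold higher in DB#1 (0.0100). Slc4a11 lost its call there with the replicate number as a block (0.0689). In DB#3, where 2.76% of all genes were called, 3 of 17 rose, Aqp1 (2.43, 3.8e-05), Slc4a11 (1.41, 0.0096) and Slc4a4, a sodium-bicarbonate cotransporter (0.91, 0.00312). Aqp1 was well above background on 1 of the 3 M arrays, and Slc4a5 on none. Both entered these tests only through the derived lines, where they are high, so their calls and p-values are not independent of that filter.

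DB#2 differed from D on the same list. Against M, 0 of 16 tested genes were called by limma there, 3 of them with an unadjusted p under 0.05, where 3.44% of all genes were called. With slide as a block 3 were called, Slc4a8 (0.99, adjusted p = 0.00816), Slc4a11 (1.08, 0.0395) and the proton channel Hvcn1 (-0.49, 0.0329). Against D, where 6.34% of all genes were called, 3 of 17 fell, Slc16a3 (-2.48, adjusted p = 6.76e-05), Aqp1 (-2.09, 8.33e-05) and Slc4a4 (-0.998, 0.000443), and the sodium-driven exchanger Slc4a8 rose (1.06, 0.0157). Aqp1 entered this test only through D, where it is high, so its call and p-value are not independent of the filter. DB#2 thus had lower Slc16a3, Aqp1 and Slc4a4 than D, and a relation of these genes to the Car2 level was not tested.

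Of 20 HIF response genes on the array other than Car9, 18 were tested in each melanoma comparison. Against M, 2 rose in D, Ak4, a mitochondrial adenylate kinase (2.91, adjusted p = 2.75e-06), and P4ha2, a collagen prolyl hydroxylase (0.86, 0.00572), and both also rose in DB#1 (2.50 and 0.94), where Pfkfb3, a regulator of glycolysis, was called too with the replicate number as a block (0.74, 0.0387). The shares of all genes called were 2.97% in D and 3.69% in DB#1. In DB#3, Ak4 rose (2.04, 0.000434) and Ddit4, an mTOR inhibitor, fell (-1.40, 0.0299), where 2.76% of all genes were called. In DB#2, against 3.44% of all genes, 0 of 18 were called by limma (3 with an unadjusted p under 0.05). Pfkfb4 (-0.73) was called once slide was a block (0.00495). Ak4 was lower in DB#2 than in D (-2.37, 2.55e-05). Among 8 genes of the HIF machinery, Epas1, which encodes HIF-2α, rose in D (1.02, 0.00187), DB#1 (1.77, 1.39e-06), DB#2 (1.52, 3.09e-05) and DB#3 (2.14, 2.73e-07), whereas Car9 was called in none of these lines.

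In M against M0, where Car9 was lower in M, 15 of 18 HIF response genes were lower in M and 2 were higher, with a median difference of -3.23 against -0.13 for all genes, of which 58.5% were called. The largest differences towards M0 were Ankrd37 (-8.17), Ak4 (-6.41) and Bnip3 (-5.72). P4ha2 (at least 42.8-fold) and Adm, the vasodilator adrenomedullin (at least 11.7-fold), were higher in M, as was Epas1 (at least 8.90-fold). In J365 against M0 0 of 16 were called by limma, 1 with an unadjusted p under 0.05, where 1.47% of all genes were called.

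**Figure D5:**
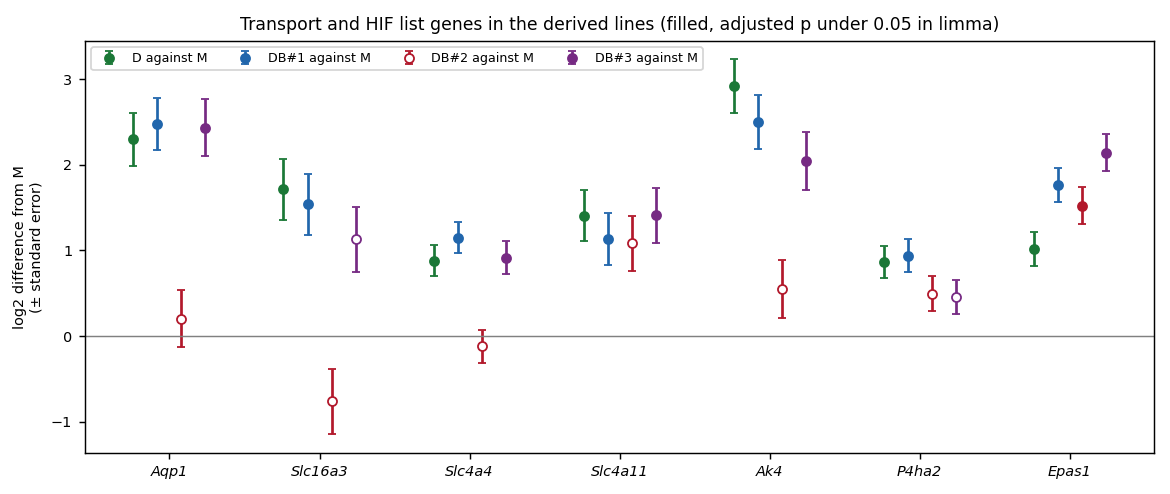
Log2 difference from M, with its standard error (vertical axis), of 4 transport genes, 2 HIF response genes and Epas1 (horizontal axis) in D, DB#1, DB#2 and DB#3. Filled points had an adjusted p under 0.05 in limma, and Aqp1 was not tested in DB#2. Epas1 is filled in all 4 lines, while Aqp1, at 2.30, 2.48 and 2.43 in the other lines, stands at 0.20 in DB#2.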

How the data were processed

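The authors extracted total RNA, labelled it with Cy3, hybridised it to single-colour Agilent whole-mouse arrays and read them with Feature Extraction 10.7.3.1. The deposited values are spot intensities on a linear scale, corrected for background and not scaled between arrays. All 1511424 values of the deposited series table equalled the scanner intensities. GeneSpring is named for the statistics, with no test.

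Each array held 62976 spots, 0 of them saturated among non-controls. Spots marked as outliers were left out, which removed 117 of 56605 probes and 0 of this family. Probes were named through RefSeq transcripts (GRCm38.p6, 32917 probes, 22881 symbols). The array design refers to mm9, so gene order and promoters come from RefSeq alone. The log2 intensity less the array's 75th percentile was used, and a gene was represented by its brightest probe on average. The number of arrays, 3 or 4 a line, limits the precision. There were 3 slides with 8 arrays, and all 7 lines were present on each.

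Lines were compared with limma 3.58.1 in R 4.3.3 (lmFit and eBayes, 24 arrays, 1 mean per line, 17 residual degrees of freedom, two-sided). A gene was tested if well above background on every array of at least 1 line compared, adjusted by Benjamini-Hochberg over all genes tested in the comparison, and called at an adjusted p under 0.05. The scripts were tested on simulated data. Members, gene lists and rules were chosen with earlier results of these data known. The named genes are the members, the other carbonic anhydrases, up to 3 called genes in each direction of each list, the 5 neighbours on each side of the chromosome 3 cluster, and the 3 genes most correlated with a member. The test of D minus M less J365 minus M0 and the flanks of Car6 were added after the values were seen.

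Arrays M0 and J365 without a number in the title are called replicate 4. Numbers in the titles could pair arrays. In DB#1 against M the deviations of the 3 same-numbered pairs correlated at 0.65, 0.57 and 0.91. Over all comparisons the 24 pairs ran from -0.79 to 0.91, and 11 exceeded 0.1. The main fit therefore did not pair arrays in any comparison, and the replicate number entered only as an alternative. Alternatives were quantile normalization, normexp with an offset of 50, no scaling, the percentile over probes well above background on all arrays, the mean of all probes, no filter, the 2 lines alone, slide or replicate number as a block, and leaving out each array. The files used hold no mean signal, so normexp took the median signal.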

Additional observations from a re-analysis of the deposited data

Results flagged for a closer look

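In 27 sets of 4 arrays of a line and member, 2 held an array far from the others of its line, and chance alone marks about 1 in 20. Car4 on M0 replicate 1 was -6.05, with the nearest array at -6.30. Car12 on DB#1 replicate 4 was -6.36, with the nearest at -5.03. Both signals were not well above background.

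The difference D minus M differed from J365 minus M0 for Car6, by 1.52 (limma adjusted p = 0.0240), and for Car14, by 1.01 (0.0292), in a test of the difference itself. Without D replicate 3 the differences were 1.67 (0.00986) and 1.08 (0.0161). Car6 was not above background on any myeloid array.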

How the results depend on the processing

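No called result reversed. With the 2 lines alone in the fit, 0 members were called in D against M, DB#2 against M, DB#2 against D and J365 against M0, where 1 was called in each before, and fewer arrays then estimate the spread. In DB#2 against M, 2 members were called with slide as a block or with the percentile over probes well above background on all arrays, and 0 without the filter on dim probes. In J365 against M0, 0 were called with the mean over all probes of a gene. Leaving out 1 array at a time gave 0 to 1 called members in DB#1 against M, DB#2 against M, DB#2 against D and J365 against M0. Over all genes, slide as a block raised the calls from 598 to 1083 in D against M, from 765 to 1163 in DB#1 against M, from 720 to 1113 in DB#2 against M, from 1310 to 2367 in DB#2 against D and from 303 to 499 in J365 against M0. The difference of Car2 between DB#2 and M was 4.36 within slide 2 and 3.44 within slide 3. The replicate block left 0 called members in J365 against M0 (Car14 adjusted p = 0.340), where the arrays share only a number, with correlations of -0.20 and 0.02 for the 2 numbered pairs. It changed no other call of a member. In DB#3 against M, whose arrays also share only a number, it left 2 of 3 transport genes and 1 of 2 HIF response genes called, and in D against M it raised the HIF response genes called from 2 to 4. The cause of these changes was not tested. With quantile normalization Car2 in D against M turned from 0.26 to -0.41. Over 858 combinations of member, comparison and alternative, 13 lost a call and 2 gained one, but most of them had no call to lose. All 13 losses were in Car6 or Car14. Car6 was called in 10 of 15 alternatives in DB#2 against M and in 15 of 15 in DB#3 against M. In D against M and in DB#1 against M it was called in 15 of 16. Car14 was called in 14 of 16 in DB#2 against D and in 12 of 16 in J365 against M0. In M against M0, Car15 missed the threshold without scaling (-0.48, adjusted p = 0.0506).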
